A study of Mus musculus with 8 samples.

Results

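The translation initiation factors and elongation factors were examined in the livers of 8 Ames dwarf mice. Members were all probe sets whose only gene symbol in the platform annotation began with Eif or Eef followed by a digit. They numbered 66 probe sets for 49 genes, out of 12422 probe sets for 8251 genes on the array. The mice were female and homozygous for the Ames dwarf mutation (df/df), were fed pelleted standard chow ad libitum, and were killed between 24 and 26 months of age. The mutation is carried in the germ line and is known for loss of growth hormone, prolactin and thyrotropin from the pituitary, so hormone supply as well as liver genotype differs from that of other mice. All 8 mice shared genotype, sex, diet and age range, so the only comparison open was between the livers of single mice. Each liver had its own Affymetrix U74Av2 array, and the livers are numbered as in their titles.

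Initiation factors bring the small ribosomal subunit, the initiator tRNA and the mRNA together and find the start codon. The factor eIF2 carries the initiator tRNA and is held back when stress kinases phosphorylate it, eIF3 is the scaffold on the small subunit, and the eIF4 factors recognise the mRNA cap and unwind the leader. Elongation factor eEF1 delivers each aminoacyl-tRNA and eEF2 moves the ribosome along by a codon, and the liver depends on both for its heavy output of plasma proteins.

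The signals are the deposited array intensities in arbitrary units. Array medians ran between 156 and 181, and the log2 signals of any pair of arrays correlated with r between 0.907 and 0.973. The files hold no detection calls, so dim probe sets may hold background alone. Tests were limited to probe sets whose mean log2 signal lay above the median of the array, at a signal of 162, which kept 42 member probe sets for 36 genes out of 6211 probe sets for 4819 genes. Defining hepatocyte transcripts were strong in all livers, with a summed signal between 111064 in liver 6 and 162625 in liver 3 for the 9 of 10 listed genes on the array. The 12 macrophage and Kupffer cell genes summed to between 5207 in liver 7 and 22422 in liver 4. Livers 4 and 8 stood apart by an interferon score, the mean centred log2 signal of 15 interferon-induced genes, at 2.22 and 1.55, while the other livers lay between -1.47 and 0.31. In whole liver, fewer cells of a type and less RNA per cell cannot be told apart.

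The brightest members were the elongation factors. Eef1a1, which delivers aminoacyl-tRNA to the ribosome, ranged between 19973 in liver 8 and 24819 in liver 3, with a median of 21073. Eef2, the translocation factor, ranged between 5815 in liver 8 and 7794 in liver 5, with a median of 6634. Eef1a1 held first place and Eef2 second place in each of the 8 livers, and their ranges did not overlap. The lowest Eef2 signal, 5815 in liver 8, lay under the highest signal of the next probe set, 5882 for Eif4a2 in liver 3. Below them Eif4a2, an RNA helicase of the cap-binding complex, and the brightest probe set of Eif4ebp2, an inhibitor of the cap-binding factor eIF4E, averaged 4642 ± 709 and 4445 ± 876 (SD, n = 8). Their ranges overlapped, and Eif4a2 was the brighter in only 4 of 8 livers. Eif3c averaged 2711 ± 115 and Eif2s3x 2628 ± 266, and Eif3c was the brighter in 5 of 8 livers. Of the 41 neighbouring places in the order of tested probe sets, 7 held in all livers and 2 had ranges that did not overlap, those of Eef1a1 over Eef2 and of the brightest Eif4ebp2 probe set over Eif3c. Probe sets differ in how strongly they bind their target, so this is an order of signals and not of mRNA amounts.

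**Figure D1:**
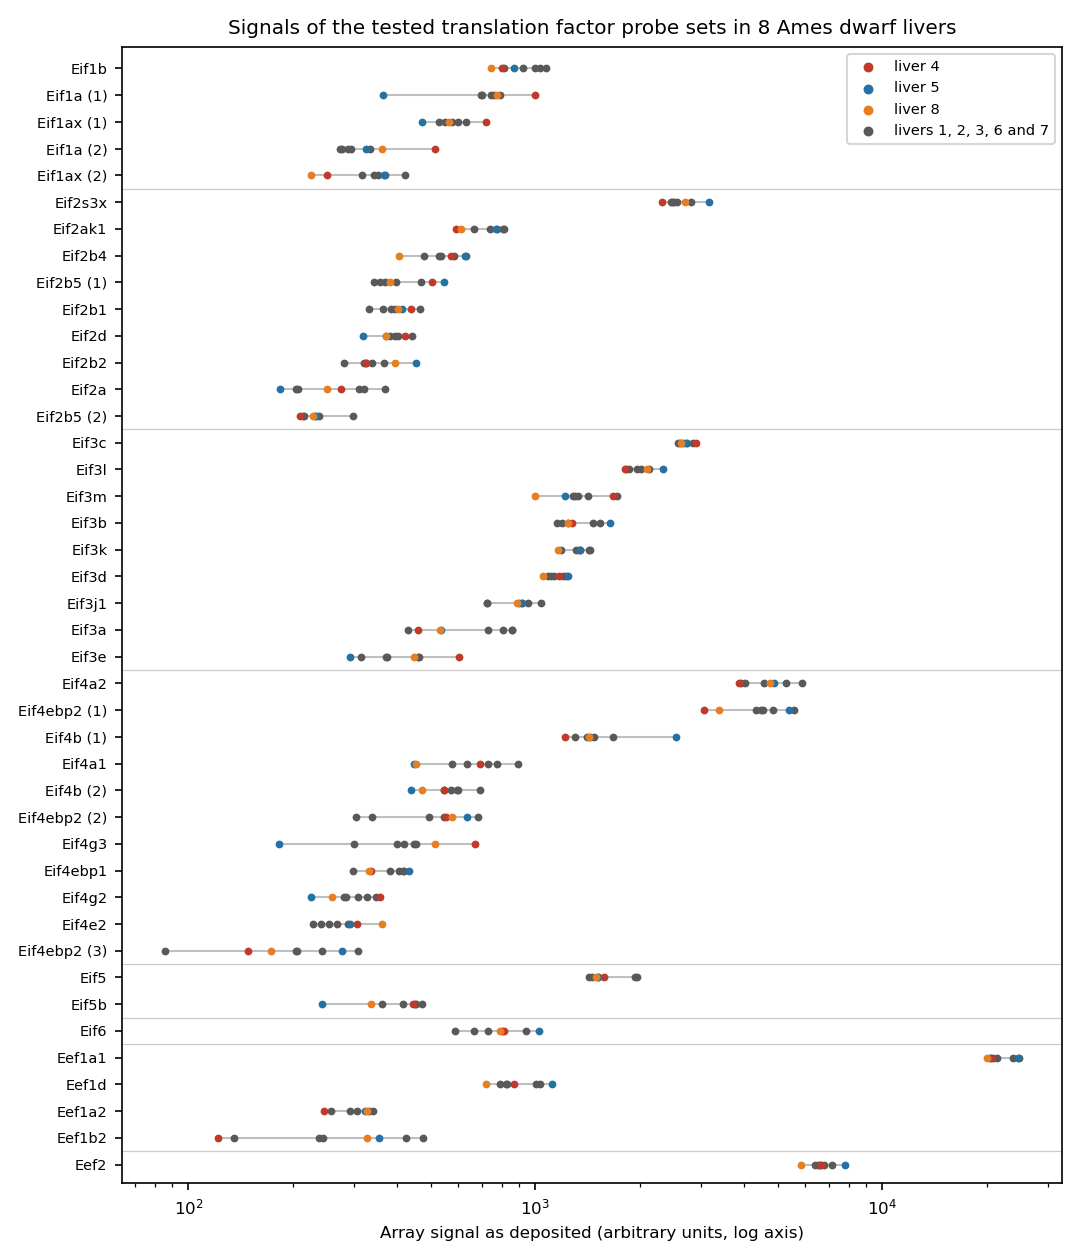
Signal of each tested member probe set in each of 8 livers on a log axis, grouped by factor family, with livers 4, 5 and 8 coloured. Numbers in brackets after a gene count its probe sets from the brightest down. Eef1a1 lies to the right of every other probe set, while Eef2 overlaps Eif4a2 at its lower end and most of the others overlap their neighbours.

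The annotated transcription starts of some bright member genes, chosen by hand, are shown for comparison. Eef1b2, Eif4g3, Eif1a and Eif3a, which passed the variance test given below, are not among them. Many mRNAs of the translation machinery are known to begin with a C and a run of pyrimidines, a feature through which growth signalling controls their translation. The sequences are from RefSeq on GRCm38.p6, run 5′ to 3′ on the strand of the gene, and cover 15 bases before the annotated start and the 15 from it onwards. Capitals mark a pyrimidine tract (a C within 5 bases of the start followed by at least 4 bases that are each C or T) or the letters TATAAA.
Eef1a1, chr9:78481710-78481739, minus strand: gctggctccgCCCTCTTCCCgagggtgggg
Eef2, chr10:81176616-81176645, plus strand: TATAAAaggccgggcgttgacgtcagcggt
Eif3l, chr15:79075208-79075237, plus strand: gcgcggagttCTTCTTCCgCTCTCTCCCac
Eif2s3x, chrX:94212637-94212666, minus strand: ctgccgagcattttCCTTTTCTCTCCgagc
Eif4b, chr15:102073758-102073787, plus strand: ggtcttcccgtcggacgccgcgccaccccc
Eif3c, chr7:126566352-126566381, minus strand: ctcacctgctcagagggactcggcagctta
Eif4ebp2, chr10:61452655-61452684, minus strand: ggtatcgcagcgggacgaccgggcgagagc

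A promoter entry was found for 41 of the 49 member genes, and the tested genes among them had 33 windows for 30 genes. The tract stood at the start in 7 of these 33 windows (21.2%), those of Eef1a1, Eif2ak1, Eif2b2, Eif2b5, Eif2s3x, Eif3b and Eif3l, and in 18.3% of all 32851 windows. TATAAA, searched on both strands between 250 bases before and 50 bases after the start, was found for Eef2 and Eif3b, or 6.06% of member windows, and in 13.6% of all windows. The STAT-type motif TTCNNNGAA, searched likewise, was found only for Eif3c among the member windows (3.03%), against 8.3% of all windows. The motifs were searched separately, so that matches could overlap. These matches describe letters in a window and carry no measurement of binding. The starts are those annotated and were not measured in these livers, and a tract beyond 5 bases of them was not counted.

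Among the elongation factors, Eef1a1 and Eef2 were also steady, at 1.24-fold and 1.34-fold between the highest and the lowest liver. Eef1d, a subunit of the complex that reloads eEF1A with GTP, ranged between 721 in liver 8 and 1120 in liver 5, with a median of 849. Eef1a1, Eef1d and Eef2 were all lowest in liver 8, and livers 2, 3 and 5 gave the 3 highest signals for each of them. Over the 8 livers Eef1a1 correlated with Eef1d at r = 0.916 (rho = 0.762) and with Eef2 at r = 0.838 (rho = 0.905), and Eef1d with Eef2 at r = 0.905 (rho = 0.905). Without liver 5 these values were 0.891, 0.796 and 0.846. The points share arrays and scaling, and the values are given without a p. Against the log2 array median, Eef1a1, Eef1d and Eef2 had r of -0.782, -0.652 and -0.639. That median was highest in liver 8 and lowest in liver 3, and its part in the result was not tested. Eef1b2, a further exchange subunit, went its own way and gave 121.9 in liver 4 and 135 in liver 2, a median of 285, and 475 in liver 6. Its highest signals, in livers 6, 1 and 5, were all above 355, and its SD of 0.72 on the log2 scale was the largest of the tested members. That probe set carries the platform's suffix for probes that break its selection rules, and a second Eef1b2 probe set lay below the filter, at 15.3 to 74.7. Eef1a2, the eEF1A form known from muscle and neurons, lay between 246 and 342.

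The small scanning factors of the Eif1 group overlapped one another. Eif1b, a close relative of the start codon selection factor eIF1, was the brightest, at 747.5 in liver 8, a median of 894 and 1074 in liver 3. Eif1a, an eIF1A gene that helps the ribosome scan, gave 364 in liver 5, a median of 752 and 1001 in liver 4 with its brighter probe set. Liver 5 was the one low liver, since the other 7 gave at least 697.5. The dimmer Eif1a probe set gave 274 in liver 3, a median of 310 and 512 in liver 4, so both were highest in liver 4. Eif1ax, the X-linked copy, gave 472 in liver 5, a median of 570 and 719 in liver 4 with its brighter probe set. The dimmer one gave 225 in liver 8, a median of 348 and 422 in liver 1, a different order of livers.

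The Eif2 group spanned subunits of eIF2, its exchange factor eIF2B and its kinases. Eif2s3x, the subunit that binds GTP and the initiator tRNA, gave 2316 in liver 4, a median of 2537 and 3167 in liver 5, a 1.37-fold range and the smallest SD of the group (0.14). The most variable was Eif2a, a factor that can deliver initiator tRNA by another route, at 184 in liver 5, a median of 263 and 369 in liver 2. The eIF2B subunit genes Eif2b1, Eif2b2 and Eif2b4 lay between 280.2 and 632 in all livers. Eif2b5, the catalytic subunit, gave 342.5 in liver 7, a median of 389 and 545 in liver 5 with its brighter probe set, and 209.6 in liver 4, a median of 230.3 and 299 in liver 6 with the dimmer. Of the eIF2 kinases only the heme-regulated Eif2ak1 passed the filter, between 592 in liver 4 and 812 in liver 6. Eif2d, another carrier of initiator tRNA, lay between 318.5 and 441.

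Members of the eIF3 scaffold included the steadiest probe sets. Eif3c, a core subunit, gave 2579 in liver 2, a median of 2695 and 2906 in liver 4, which is 1.13-fold from the lowest to the highest liver with an SD of 0.06. Eif3d, a subunit that in human cells can itself bind the cap, gave 1053 in liver 8, a median of 1153 and 1243 in liver 5, and Eif3k differed by 1.24-fold. Both stayed within a narrower band than Eif3a, the largest core subunit, which gave 430.2 in liver 3, a median of 634 and 859 in liver 6. The remaining eIF3 probe sets that passed the filter were those of Eif3b, Eif3e, Eif3j1, Eif3l and Eif3m, with ranges between 1.29-fold (Eif3l) and 2.06-fold (Eif3e).

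The probe sets of the Eif4 group had a median range of 1.82-fold, beside 1.42-fold in Eif3, 1.43-fold in Eif2, 1.47-fold in Eef1 and 1.87-fold in Eif1. These differences were not tested. Eif4a2 gave 3852 in liver 4, a median of 4655 and 5882 in liver 3, while the related helicase Eif4a1 lay between 447 in liver 5 and 893 in liver 7. Eif4g3, a scaffold that joins the cap-binding factor to the helicase, gave 182 in liver 5, a median of 432 and 668.5 in liver 4. Its relative Eif4g2, which lacks the part that binds eIF4E, was likewise lowest in liver 5 and highest in liver 4, at 225 and 356. Eif4b, which stimulates the helicase, ran the other way with its brighter probe set, at 1215 in liver 4, a median of 1432 and 2543 in liver 5. The dimmer Eif4b probe set was lowest in liver 5, at 438, with a median of 559 and its highest signal of 693 in liver 7. The eIF4E inhibitor Eif4ebp1 had the smallest SD of the group (0.20), between 298 in liver 6, a median of 393 and 431 in liver 5. Eif4e2, a cap-binding relative of eIF4E that represses translation, lay between 228.5 and 360.4.

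Eif5, which triggers GTP hydrolysis by eIF2 at the start codon, gave 1423 in liver 3, a median of 1512 and 1962 in liver 6. Eif5b, which joins the ribosomal subunits, gave 243 in liver 5, a median of 429 and 473 in liver 7. Eif6, which keeps free large subunits from joining too early, gave 587 in liver 2, a median of 797 and 1022 in liver 5.

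Members varied between livers about as much as other probe sets of the array. The median SD was 0.21 for the 42 tested member probe sets and 0.24 for all tested, and the median ratio of highest to lowest liver was 1.57-fold against 1.63-fold. The variance of each probe set was set against the typical variance at its signal by a one-sided chi-square test, adjusted by Benjamini-Hochberg over all 6211 probe sets with a threshold of 0.05. It was exceeded by 5 of 42 member probe sets (11.9%), beside 11.3% of all tested. These were Eef1b2 (SD 0.72, adjusted p = 3.37e-05), Eif4g3 (SD 0.56, adjusted p = 0.000456), the brighter Eif1a probe set (SD 0.42, adjusted p = 0.0203), Eif3a (SD 0.41, adjusted p = 0.031) and the second brightest Eif4ebp2 probe set (SD 0.42, adjusted p = 0.0455). That Eif4ebp2 probe set gave 304.5 in liver 6, a median of 551 and 683 in liver 7, with livers 6 and 1 apart below the rest. Without liver 5 the SD of Eif4g3 was 0.35 (adjusted p = 0.301) and that of Eif1a was 0.18 (adjusted p = 1). The adjusted p of Eif3a passed 0.05 without liver 2, 3, 6 or 7, and that of Eif4ebp2 without liver 1, 6 or 7. Eef1b2 stayed past the threshold without any single liver.

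**Figure D2:**
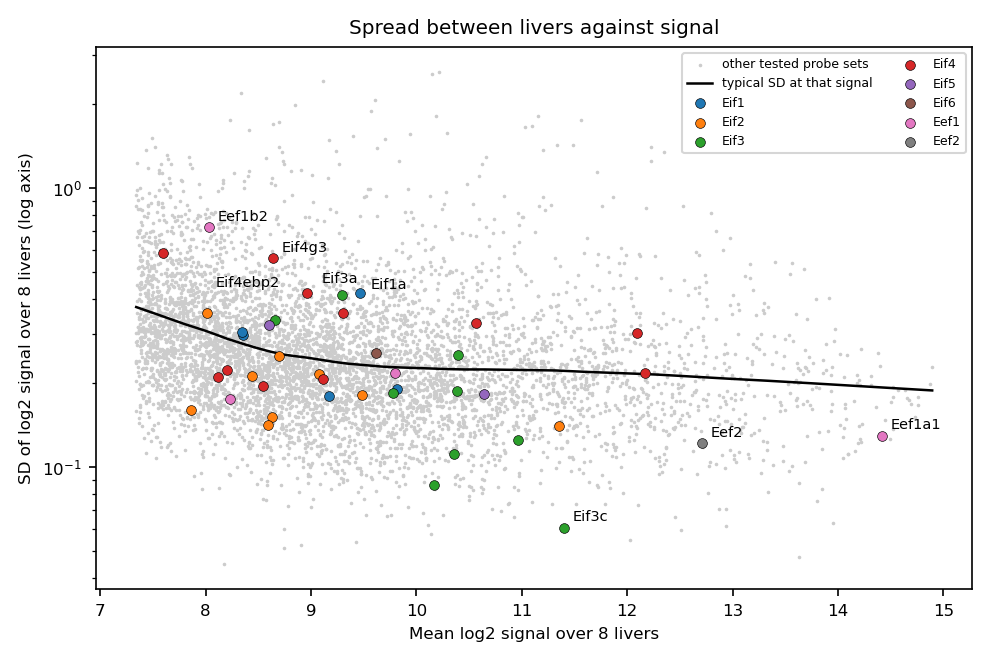
SD of the log2 signal over 8 livers (log axis) against the mean log2 signal, with tested members coloured by factor group, other tested probe sets in grey and the typical SD at each signal as a line. Members lie on both sides of the line, with Eef1b2 (0.72) and Eif4g3 (0.56) high and Eif3c (0.06) low.

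On the steady side, 25 of 42 member probe sets (59.5%) had a variance below the typical one, beside 57.6% of all tested. In the lower tail of the same test no probe set of the array passed the adjusted threshold, so 0% of all tested and 0 of 42 members were called. At an unadjusted p under 0.05 the lower tail held 5 members (11.9%), namely Eif3c, Eif3d, Eif3k, the dimmer Eif2b5 probe set and Eif2d, beside 10.9% of all tested. The lowest of these was Eif3c, with an unadjusted p of 0.00066 and an adjusted p of 0.295. A stricter test in limma, of each variance against the spread of all variances, called 0 of 42 members and 0% of all tested. At an unadjusted p under 0.05 it held Eef1b2 and Eif4g3, or 4.76% of members, beside 6.84% of all tested.

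Liver 5 held many of the extremes. It gave the highest signal of 11 of the 42 member probe sets (26.2%, beside 18.8% of all tested) and the lowest of 10 (23.8%, beside 16.1%), together 50% of members beside 34.9%. The highest were Eef1d, Eef2, Eif2b2, Eif2b5, Eif2s3x, Eif3b, Eif3d, Eif3l, Eif4b, Eif4ebp1 and Eif6. The lowest were Eif1a, Eif1ax, Eif2a, Eif2d, Eif3e, Eif4a1, the dimmer Eif4b probe set, Eif4g2, Eif4g3 and Eif5b. Liver 8 gave the lowest signal of 9 members (21.4%, beside 11.8%), among them Eef1a1, Eef1d, Eef2, Eif3d, Eif3k and Eif3m, and the highest of Eif4e2 only (2.38%, beside 10%). Liver 4 gave the highest of 7 (16.7%, beside 17.2%) and the lowest of 9 (21.4%, beside 22.6%), together 38.1% of members beside 39.8%. None of these shares was tested. Liver 5 also had the highest summed signal of the erythroid list, at 15557, and of the endothelial list, at 1912. By the mean centred log2 signal of the tested genes, liver 5 was again highest for the erythroid list, at 0.53. For the endothelial list liver 2 was highest, at 0.41, beside 0.30 in liver 5. The part of these lists in the result was not tested.

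**Figure D3:**
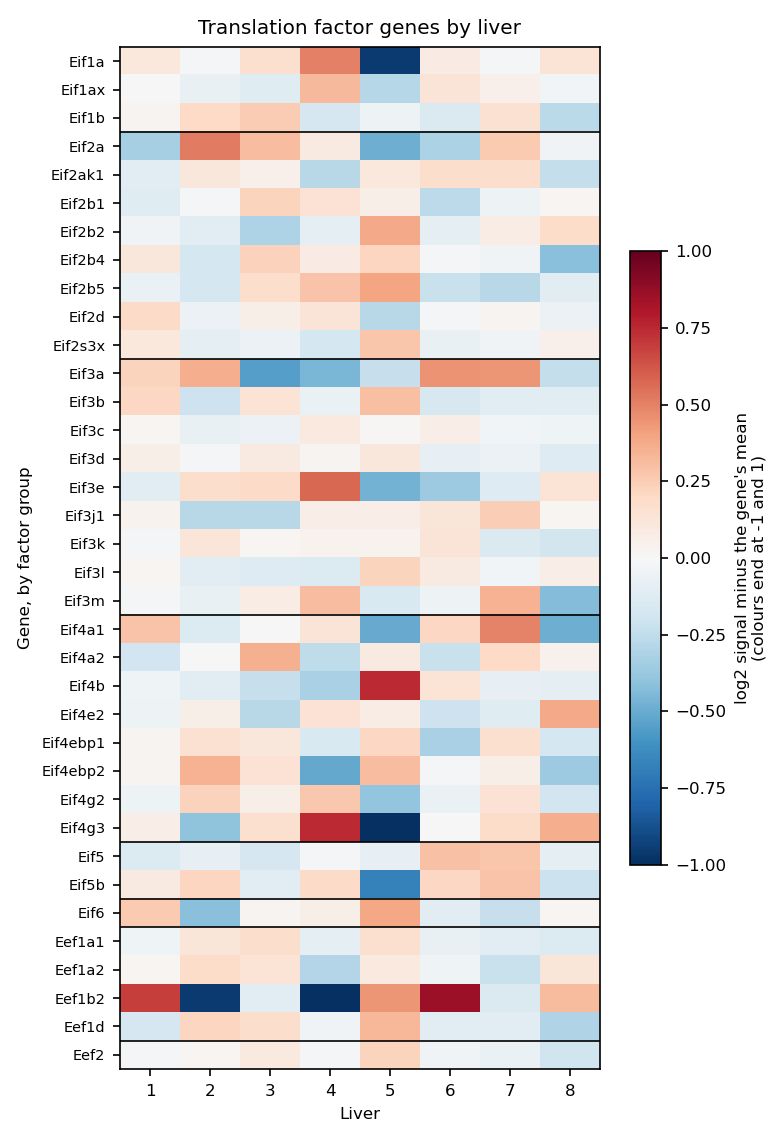
Centred log2 signal of each tested member gene (rows, by factor group) in each of 8 livers (columns), 1 probe set per gene, with colour for the difference from the mean of the gene. Livers 4 and 5 show opposite colours for genes such as Eif1a, Eif4g3 and Eif4b, and rows of 1 factor group do not share a common pattern.

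The signal of every tested probe set outside the interferon list was fitted on the interferon score in limma, with adjustment over the 6194 probe sets fitted. Only the brightest Eif4ebp2 probe set passed among the 42 members (2.38%, beside 6.17% of all fitted), and it fell as the score rose, as did 2.37% of all fitted. It gave 3055 in liver 4 and 3385 in liver 8, a median of 4501 and 5557 in liver 2. Both livers with a high score were thus the lowest, and the next was liver 6 at 4333.5. The slope was -0.21 ± 0.041 (SE) log2 units per unit of score, with an adjusted p of 0.00979 in limma. The Pearson correlation was r = -0.930 (exact permutation p = 0.00196) and Spearman's rho -0.857 (exact permutation p = 0.0107), over 8 livers. The fit on these same livers had picked this probe set out of 42, so both unadjusted p are no separate support. Arrays 1 to 4 gave r = -0.940 and arrays 5 to 8 gave r = -0.915, a division of the numbering by which the spike-in controls differed and not a batch that the labels name. Each part held 1 liver of high score, liver 4 or liver 8, which was also its lowest for this probe set. The r of the parts are therefore no separate support. Without livers 4 and 8, the farthest in score, r was -0.633 and the slope -0.13, with an adjusted p of 0.737 in limma. The call was also lost without liver 4 alone (adjusted p = 0.138) and without liver 8 alone (adjusted p = 0.0508). The macrophage list moved with this probe set as well, at r = -0.864 for its score, and so did the array median, at r = -0.806, and their part in the result was not tested. The interferon score itself correlated with the log2 array median at r = 0.916 over the 8 livers, so score and median cannot be told apart here. All 12 macrophage genes were on the array, 10 passed the signal filter, none was below the floor in all livers, and the summed level is the one given above.

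The other 2 Eif4ebp2 probe sets did not share this order, with r = -0.107 and r = -0.012 against the score. The dimmest gave 85.5 in liver 2, a median of 205 and 308 in liver 6, and neither liver 4 nor liver 8 was the lowest with either probe set. At an unadjusted p under 0.05 the fit held 8 member probe sets (19%), beside 19.2% of all fitted. Eif1b was among them, at an adjusted p of 0.144 in limma. Its rho of -0.905 with the score was beyond that of the brightest Eif4ebp2 probe set. Without livers 4 and 8 its r was -0.786. No member rose with the score at the adjusted threshold, beside 3.79% of all fitted. Scaling every array to a common median gave 3 members that fell, Eif1b, Eif2ak1 and Eif4ebp2, and none that rose. The split over all fitted probe sets was 235 rising and 147 falling as deposited, and 194 rising and 445 falling with median scaling.

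**Figure D4:**
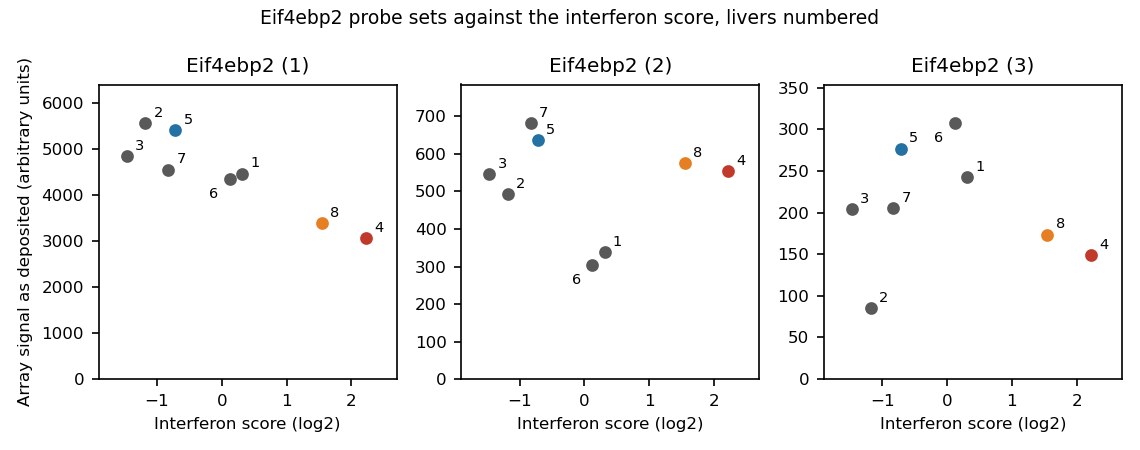
Signal of the 3 tested Eif4ebp2 probe sets, numbered from the brightest down, against the interferon score (log2), with a point per liver. The brightest is lowest in livers 4 and 8, while liver 6 is lowest with the second and liver 2 with the third.

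Ribosomal protein genes encode the other large part of the translation machinery. The fit on their score, the mean of 23 genes, called 0 of 42 members and 0% of the 6185 probe sets fitted. At an unadjusted p under 0.05 it held 2 members, or 4.76%, beside 5.14% of all fitted. These were Eef1d, with a positive slope, and Eef1b2, with a negative one, and the adjusted p was 0.891 for both in limma. The score itself spanned only -0.09 to 0.07 log2 units over the livers.

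Agreement within the factor groups was weak, taking 1 probe set per gene. The mean correlation over pairs of genes was -0.022 in Eif2 (28 pairs, 13 above 0), 0.011 in Eif3 (36 pairs, 19 above 0) and -0.064 in Eif4 (28 pairs, 11 above 0). It was 0.289 in Eef1 (6 pairs, 4 above 0), 0.115 in Eif1 (3 pairs) and 0.486 for the single pair of Eif5 and Eif5b. Over all 11608971 pairs of tested genes the mean was 0.00509. These are descriptions over 8 livers that share arrays and scaling, with no p. The Eef1 mean depended on which members entered. It was 0.631 without the probe sets whose suffix marks shared sequence or broken selection rules, Eef1b2 among them. It also moved with the scaling, to 0.405 with every array scaled to a common median and 0.106 with quantile normalization.

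Of the 630 pairs of member genes, each gene taken by its brightest tested probe set, 19 had r above 0.8 (3.02%), beside 1.7% of all gene pairs. Of these 19 pairs 16 joined different factor groups, as did 528 of all 630 pairs, and the share above 0.8 was 3.03% between groups and 2.94% within them. The highest was Eif1a with Eif4g3 (r = 0.937, rho = 0.714), both lowest in liver 5 and highest in liver 4. Eif3l, a peripheral eIF3 subunit, went with Eif4b (r = 0.904, rho = 0.929), and both went with Eif2s3x (r = 0.827 and r = 0.826). The Eif4b values here are those of its brighter probe set, whose suffix marks shared sequence or broken selection rules. The dimmer Eif4b probe set was lowest in liver 5. Eif3l gave 1817 in liver 4, a median of 1993 and 2339 in liver 5, the same extremes as Eif4b and Eif2s3x. Within eIF3, Eif3b and Eif3d reached r = 0.826, while Eif3e and Eif3l ran opposite ways at r = -0.841. The lowest values were -0.946 for Eif1a with Eif4b and -0.923 for Eif3l with Eif4g2. Values below -0.8 made up 2.22% of member pairs, beside 1.51% of all gene pairs. Without liver 5, 9 of the 19 member pairs stayed above 0.8, beside 147818 of 197063 among all gene pairs, and the shares of pairs above 0.8 were then 2.54% of member pairs and 2.51% of all pairs. Eif2s3x with Eif4b then had r = 0.417 and Eif1a with Eif4b r = -0.662, while Eif3l with Eif4b had r = 0.855. Eif1a with Eif4g3 had r = 0.829, and Eif4b with Eif4g3 had r = -0.536, against -0.871 over all livers.

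**Figure D5:**
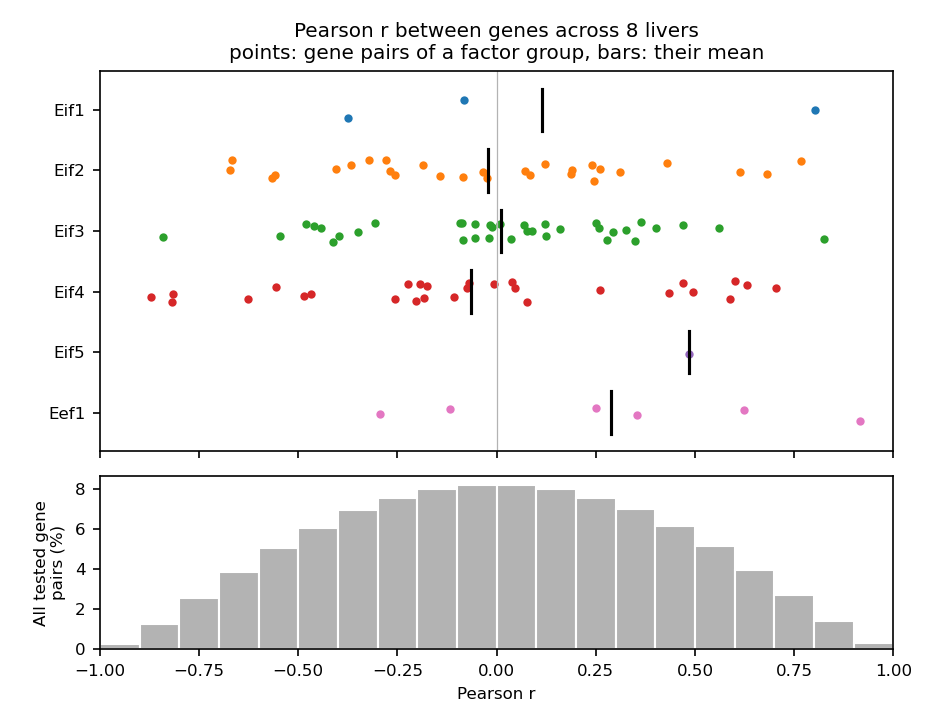
Pearson r over 8 livers for each pair of tested genes within a factor group (points, with a bar at the mean of the group), above the percentage of all pairs of tested genes in each range of r. The 102 pairs within groups spread on both sides of 0 (mean 0.00545), as do the pairs of all tested genes. Of the pairs within groups 3.92% lay below -0.8 and 2.94% above 0.8, beside 1.51% and 1.7% of all pairs.

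Probe sets for the same gene gave the array's own check on these patterns. Among the 7 such member pairs, 0 correlated at an adjusted p under 0.05 in an exact permutation test, beside 2.82% of the 886 same-gene pairs on the array, and 0 did at an unadjusted p under 0.05, beside 15.5%. Only 2 of the 7 were above 0 (28.6%, beside 67.9%), and the median r was -0.29, against 0.24 over all same-gene pairs. The values were 0.340 for Eif1a, -0.461 for Eif1ax, -0.387 for Eif2b5 and -0.538 for Eif4b. The 3 Eif4ebp2 pairs had r of -0.016, 0.015 and -0.291. The lowest adjusted p of the 7 was 0.546, for Eif4b. The patterns of Eif1a, Eif1ax, Eif2b5, Eif4b and Eif4ebp2 described above are those of the probe set named, and no agreement with the other probe sets of these genes was detected.

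The 24 member probe sets below the signal filter belonged to 21 genes, 13 of which had no tested probe set. Among the elongation genes these were Eef1g (1.5 to 22), a further eEF1 subunit, Eef1akmt1 (118 to 179), which methylates eEF1A, and Eef2k (19.1 to 124), the kinase that inhibits eEF2. The eIF2 kinases Eif2ak2 (78.7 to 145), Eif2ak3 (5 to 107) and Eif2ak4 (45.3 to 156) were also below it. Eif2ak2 encodes the double-stranded RNA kinase that interferon induces, and its signal was 145 in liver 4 and 111 in liver 8, the livers of high interferon score, and 143 in liver 6 and 140.2 in liver 3, the liver of the lowest score. Eif2s2, an eIF2 subunit, reached at most 179.7 and 175.6 with its 2 probe sets. Eif2s3y, the Y-linked copy of Eif2s3x, was between 2.6 and 34.2 in these female livers. Eif3f (80.5 to 199.5), the cap-binding Eif4e itself (at most 61.7 and 43.3), its transporter Eif4enif1 (7.4 to 64.9), Eif4h (10.8 to 21.9) and the hypusine-bearing factor Eif5a (27.1 to 110.0) completed them. A gene at such a signal was not measured as absent. Further probe sets of Eef1b2, Eif2d, Eif3b, Eif3e, Eif3l, Eif4b, Eif4e2 and Eif5b also lay below the filter.

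The rest of the pathway was read from a list of 43 genes of termination, signalling and the stress response, of which 30 were tested with 40 probe sets. The variance test was passed by 3 of the 40, beside 11.3% of all tested, those of Pelo, a ribosome rescue factor, and of Atf3 and Ppp1r15b, which belong to the stress response to phosphorylated eIF2. Pelo lay between 189 in liver 3 and 512 in liver 8 with that probe set (adjusted p = 0.0018). The other tested Pelo probe set lay between 156 in liver 3 and 263 in liver 5 and did not pass. The passing probe sets of Pelo and Atf3 carry suffixes that mark shared sequence or broken selection rules. Atf3 lay between 184 in liver 7 and 563 in liver 4 (adjusted p = 0.0437), and Ppp1r15b between 770.0 in liver 4 and 1914 in liver 5 (adjusted p = 0.00727). Only 1 of the 40 probe sets passed without livers 4 and 8, beside 8.11% of all tested. On the interferon score 3 of the 40 fell and 0 rose, beside 2.37% and 3.79% of all fitted, and without livers 4 and 8 none of the probe sets fitted fell. They were both probe sets of Mknk2, a kinase of eIF4E, at adjusted p = 0.0347 and 0.0323 in limma, and that of Akt2, a kinase of the insulin pathway, at adjusted p = 0.0163. Mknk2 was lowest in liver 4, as was Akt2 at 849.5, with its highest signal of 1426 in liver 3. The fit on the ribosomal protein score called 0 of the 40. For context, the growth signalling kinase Mtor lay between 353 and 514.5 with its dimmer probe set, the transcription factor Atf4 between 1246 and 2114, its target Asns between 781 and 1099, the poly(A)-binding protein Pabpc1 between 3291 and 4996, and the release factor Etf1 between 889.7 and 1381 with its brightest probe set.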

How the data were processed

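Liver RNA of 8 mice was measured, 1 array per mouse, all in 1 group. The labels call each sample a mouse of its own, so the spread is taken as between animals. The deposited table holds linear intensities, 1 for each probe set on each array, judged from the file headers and values. Which software made them, with which scaling target, is not given in the sources used here. The mean after trimming 2% at each end differed by 0.00896% between arrays, so the intensities were taken as already scaled and used as deposited. Scaling to a common median shifted arrays by -0.10 (liver 8) to 0.11 (liver 3) on the log2 scale. No pair of arrays shared over 0.298% of its values.

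The 66 control probe sets were left out. Of the others, 10833 carried 1 symbol, 396 several and 1193 none in the platform annotation, and 1 probe set with several symbols that include a factor was left out. Identifiers of all 66 member probe sets matched the RefSeq gene table of GRCm38.p6. Intensities under 11.2, the 10th percentile, were raised to it before log2. The typical variance was a loess curve of span 0.3, with 7 degrees of freedom per probe set, and limma 3.58.1 in R 4.3.3 gave the variance test (prior of 4.90 degrees of freedom) and the fits on scores. Permutation tests ran over all 40320 orders of the arrays. The code was tested on simulated data. The number of arrays limits the precision.

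The members, lists and tests were chosen with earlier results of these data known. Every member gene is named. Lowest, median and highest values are given for members past a test, for the brightest, most and least variable of each group and for genes with several tested probe sets. Other genes are named if past a test, plus a few for context, and Rps6kb1 of these was not annotated. Alternatives were the scaling, floor, signal filter, leaving out probe sets whose suffix marks shared sequence or broken selection rules, loess span, the array number (1 to 4 or 5 to 8) as a block, and leaving out each array or livers 4 and 8. Those for the other genes of the pathway were chosen after seeing the data.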

Additional observations from a re-analysis of the deposited data

Results flagged for a closer look

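In 4 of the 42 tested member probe sets (9.52%), beside 7% of all tested probe sets, 1 liver lay far from the other 7. The measure is its gap to the nearest liver as a share of the whole range, both on the log2 scale, and chance alone would mark about 1 in 20 groups. The signals beside each share are linear. For the brighter Eif1a probe set this share was 0.643, with liver 5 low at 364. For the dimmer Eif1a probe set it was 0.554, with liver 4 high at 512. For the dimmer Eif2b5 probe set it was 0.647, with liver 6 high at 299, while the brighter one had its highest signal in liver 5. For the brighter Eif4b probe set it was 0.57, with liver 5 high at 2543, while the dimmer one was lowest in that liver.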

How the results depend on the processing

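Of 42 members, 5 passed the variance test as reported, beside 11.3% of all tested. With every array scaled to a common median 3 passed, beside 9.64%. At the 75th percentile of the signal filter it was 2 of 23, beside 11.2%. With 1 liver left out between 3 and 6 passed, beside between 9.53% and 11%. The interferon fit called 1 member as reported, beside 6.17% of all fitted, and 3 with median scaling, beside 10.3%. Without livers 4 and 8 it called 0 members, beside 0.161%. With 1 liver left out it called between 0 and 1, beside between 1.68% and 6.76%. The lower-tail, limma variance, ribosomal and same-gene tests called 0 members under every alternative. Over the whole array they called at most 0.0161%, 0.418%, 0.0162% and 13.8% under any alternative. For the other pathway genes the variance test called 3 of 40 as reported, beside 11.3% of all tested. It called 1 without livers 4 and 8, beside 8.11%. It called 1 of 32 without probe sets whose suffix marks shared sequence or broken selection rules (suffixed probe sets below), beside 10.4%. At the 75th percentile filter it called 1 of 27, beside 11.2%. With median scaling the calls of Eif1a (adjusted p = 0.0845), Eif3a (adjusted p = 0.0563) and the second Eif4ebp2 probe set were lost, the last also with a loess span of 0.6. Across alternatives in which it was tested, the adjusted p of Eef1b2 was at most 0.00232.

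Eef1 had a mean correlation within the group of 0.631 without suffixed probe sets, 0.0342 with the filter at the 25th percentile and 0.916 at the 75th. At the 75th percentile Eif2 was 0.122, Eif3 0.0833 and Eif4 0.0422, and Eif4 at the 25th was -0.0234. With median scaling Eif2 was 0.164, Eif3 0.156 and Eif4 0.00815, while the mean over all gene pairs was 0.0696. Eif2 was 0.0432 with quantile normalization and -0.0746 without suffixed probe sets. Eif3 was -0.0707 without livers 4 and 8, and Eif5 was 0.881 when centred within arrays 1 to 4 and 5 to 8. The filters change which genes enter, and for the other settings the cause was not tested. With 1 liver left out, Eef1 lay between 0.143 and 0.389, Eif1 between -0.118 and 0.230, Eif2 between -0.0445 and 0.00156, Eif3 between -0.0548 and 0.0406, Eif4 between -0.0939 and -0.0432, and Eif5 between 0.363 and 0.637. No paired analysis was possible because the samples form 1 group. Without detection calls, signals below the filter could not be read as levels.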

Other observations

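The marker lists of other liver cells gave these summed signals over the 8 livers. Stellate cell genes, all 5 on the array tested, summed to between 5910 in liver 5 and 8439 in liver 4. Erythroid genes summed to between 7315.5 in liver 7 and 15557 in liver 5, and endothelial genes to between 992 in liver 3 and 1912 in liver 5. B cell genes summed to between 993 and 1481, and T cell genes, of which 1 of 6 on the array passed the filter, to between 255 and 697. None of the 3 cholangiocyte genes on the array passed the filter, and they summed to between 29.3 and 64.7. The interferon list summed to 72254 in liver 4 and to 5541 in liver 3, and the 34 ribosomal protein genes on the array to between 128498 in liver 1 and 151517 in liver 5.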
